A study of Mus musculus with 4 samples.

Results

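The OAS family genes encode the oligoadenylate synthetases and their relatives, and 8 were selected by symbol: Oas1a, Oas1b, Oas1c, Oas1g, Oas2, Oas3, Oasl1 and Oasl2. Probes were assigned through the RefSeq accession that the scanner files give for each spot. Of the 8 genes 7 had a probe, with 10 probes among them, out of 56605 non-control probes standing for 45526 genes or unnamed transcripts. The gene table assigned none of the array's accessions to Oas1b, but 23611 probes had no symbol in that table, and whether any of these reads Oas1b was not examined. Oas1b is not analysed here. All 7 genes passed the filter on dim probes, under which a probe had to stand well above background on the pair of arrays of 1 genotype or the other. Oas1a, Oas1c, Oas2, Oas3 and Oasl1 were above background on all 4 arrays by their brightest probe, whereas Oas1g and Oasl2 passed only through the Irf4-/- arrays.

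The samples were CD4+ T cells from spleens of male C57BL/6 mice, 2 arrays from Irf4-/- mice and 2 from wild-type (WT) mice. Irf4 is a transcription factor that T cells induce when their antigen receptor is engaged. In both genotypes, naive cells (CD62L+CD44-) were plated at 100000 per well with antibody to CD3e at 1 µg per ml and an equal number of syngeneic antigen-presenting cells treated with mitomycin C. A second sort, on day 2, took living CD4+ cells for total RNA, and no purity is stated. The culture times in the treatment protocol are shorter than the day 2 of the titles and the design text, and day 2 was used here. The labels speak of independent experiments for each genotype, but they do not say which animals or cultures each array came from, so the p-values measure only the spread between these samples.

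The synthetases are induced by interferons and are switched on by double-stranded RNA. They then join ATP into short 2'-5' linked oligoadenylates, a second messenger that sets off the decay of viral and cellular RNA. In the mouse the Oas1 gene has been duplicated into a tandem cluster on chromosome 5, beside Oas2 and Oas3, while Oasl1 and Oasl2 lie elsewhere on that chromosome. Oas1a and Oas1g encode active enzymes, Oas1c a protein thought to lack the activity, and Oas1b is best known because its allele in C57BL/6 mice is truncated and leaves them open to flaviviruses. Oas2 and Oas3 encode larger proteins with repeated synthetase units. The Oasl proteins carry ubiquitin-like domains, and mouse Oasl1 is known to restrain translation of the Irf7 messenger RNA.

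Promoter sequences are shown because interferon-responsive genes are read through paired GAAA half-sites, the element that interferon regulatory factors, Irf4 among them, bind. RefSeq windows of assembly GRCm38.p6, running from 250 bases before to 50 bases after the annotated start, were matched by symbol for 6 members. The motif searched was GAAANNGAAA on both strands, and its matches are in capitals. The windows of Oas1a (chr5:120907476-120907775, minus strand), Oas1g (chr5:120887564-120887863, minus strand), Oas1c (chr5:120812465-120812764, minus strand) and Oas3 (chr5:120777610-120777909, minus strand) are written on the gene's own strand.
Oas1a: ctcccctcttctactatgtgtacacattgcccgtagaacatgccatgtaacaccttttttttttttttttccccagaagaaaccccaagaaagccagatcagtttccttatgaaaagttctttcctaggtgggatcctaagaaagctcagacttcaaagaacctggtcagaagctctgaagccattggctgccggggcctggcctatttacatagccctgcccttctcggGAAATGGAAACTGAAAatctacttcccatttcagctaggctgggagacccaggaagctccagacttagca
Oas1g: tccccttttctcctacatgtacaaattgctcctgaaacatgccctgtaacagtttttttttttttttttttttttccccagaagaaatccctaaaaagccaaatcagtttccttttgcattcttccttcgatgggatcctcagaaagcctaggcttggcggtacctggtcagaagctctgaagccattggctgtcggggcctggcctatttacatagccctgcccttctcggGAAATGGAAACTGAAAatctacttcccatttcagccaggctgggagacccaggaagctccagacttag
Oas1c: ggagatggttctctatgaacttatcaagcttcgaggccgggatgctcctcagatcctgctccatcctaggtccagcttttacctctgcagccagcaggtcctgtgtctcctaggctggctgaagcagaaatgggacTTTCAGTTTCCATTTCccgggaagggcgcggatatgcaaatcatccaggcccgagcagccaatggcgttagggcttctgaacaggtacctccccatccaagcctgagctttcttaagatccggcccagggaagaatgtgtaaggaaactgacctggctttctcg
Oas3: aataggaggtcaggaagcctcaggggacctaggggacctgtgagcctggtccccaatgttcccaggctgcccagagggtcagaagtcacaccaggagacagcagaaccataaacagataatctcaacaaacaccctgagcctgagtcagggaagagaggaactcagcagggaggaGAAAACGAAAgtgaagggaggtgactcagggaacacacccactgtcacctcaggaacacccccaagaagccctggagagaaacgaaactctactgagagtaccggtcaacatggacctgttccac
Oasl2, the member with the strongest difference described below, is given for contrast (chr5:114896684-114896983, plus strand).
Oasl2: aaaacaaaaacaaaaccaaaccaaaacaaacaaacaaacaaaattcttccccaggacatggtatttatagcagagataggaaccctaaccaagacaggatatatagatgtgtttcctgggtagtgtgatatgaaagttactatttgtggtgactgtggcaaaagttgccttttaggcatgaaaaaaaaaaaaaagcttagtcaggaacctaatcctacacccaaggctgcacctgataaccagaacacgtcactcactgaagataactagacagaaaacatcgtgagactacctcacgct

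Matches to GAAANNGAAA were found in 4 of the 6 windows, Oas1a, Oas1c, Oas1g and Oas3, against 3.44% of all 32851 promoter windows of the same length. Oas1a and Oas1g each held 2 matches that overlap in their middle GAAA, forming the run GAAATGGAAACTGAAA of 16 bases. It lay at positions -20 to -5 in Oas1a and -18 to -3 in Oas1g, counted from the annotated start. Those promoters are near copies, with an identical stretch of 73 bases. The Oas1c window held the same run on the opposite strand, TTTCAGTTTCCATTTC, at positions -114 to -99. The only other genes whose windows held it, on either strand, were Apol9a and Apol9b, and windows with it made up 0.0213% of the total. The single match in Oas3, at -75 to -66, had other spacer bases. No match was found in the Oasl1 or Oasl2 window, which says only that these letters are not in these windows.

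**Figure D1:**
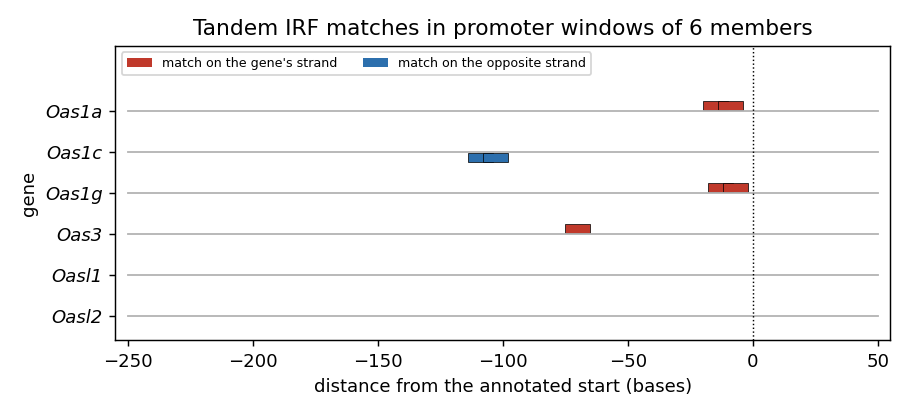
Positions of GAAANNGAAA matches in the promoter windows of 6 OAS family genes, in bases from the annotated start (dotted line), with matches on the gene's strand above each line and those on the opposite strand below it. Oas1a and Oas1g hold overlapping matches just before the start, Oas1c on the opposite strand further upstream, Oas3 a single match, and Oasl1 and Oasl2 none.

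Composite elements at which Irf4 binds DNA with partner factors were searched in the same windows. None of the 6 held GGAANNGAAA, the element shared with ETS factors (2.72% of all windows), and none held GAAATGANTCA or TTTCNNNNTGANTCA, elements shared with AP-1 factors (0.125% and 0.119% of all windows). These matches describe letters and not binding, which was not measured.

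Levels below are log2 intensities relative to the 75th percentile of the same array, and differences are Irf4-/- minus WT. Each group had n = 2 arrays throughout. Each array had 25682 to 28728 probes well above background. The limma fit covered 20512 genes, counting transcripts with no symbol, and called 0.736% of them at an adjusted p under 0.05, with 0.492% higher in Irf4-/- cells and 0.244% lower. Irf4 itself read 4.23 and 4.04 on the Irf4-/- arrays and 5.03 and 4.74 on the WT arrays, a difference of -0.75 ± 0.20 (SE, limma adjusted p = 0.231). A second Irf4 probe differed by -0.37, but the labels do not say which part of Irf4 was deleted, so neither probe checks the knockout. Among CD4 T cell markers, Cd4 (5.82 and 5.75 in Irf4-/-, 5.83 and 5.51 in WT) and Cd3e were bright on every array. Cd40lg was above background on only 1, Irf4-/- replicate 1. Of these markers 5 were tested, with a median difference of -0.01, and none passed by limma. At an unadjusted limma p under 0.05, 1 was higher and 1 lower, against 1304 higher and 1028 lower of all 20512 genes. Cd5 differed by 0.86 and Cd28 by -0.48 (adjusted p = 0.130 and 0.408).

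All 7 OAS genes with a probe read higher in Irf4-/- than in WT cells, as did 9585 of all 20512 genes tested. The size of the difference ran from 2.00-fold (Oas1c) to at least 43.8-fold (Oasl2). Oasl2 passed the test over all genes, of which 0.492% were called higher, but Oasl2 and Oas1g entered that test only through the Irf4-/- arrays and so had to differ. The counts here are therefore given for the 5 genes above background on all arrays. None of these 5 passed by limma. At an unadjusted limma p under 0.05, 4 were higher in Irf4-/- cells, as were 6.36% of all genes tested. In 4 of the 5 both Irf4-/- arrays lay above both WT arrays, which held for 17.9% of all genes tested, and Oas3 was the exception on both counts. A difference above 1 on the log2 scale was seen in 4 of the 5, Oas1c being just under it, against 3.74% of all genes. The median difference of the 5 was 3.04, against -0.02 over all genes tested. In RNA from many cells, more signal per cell and more cells that express a gene cannot be told apart.

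**Figure D2:**
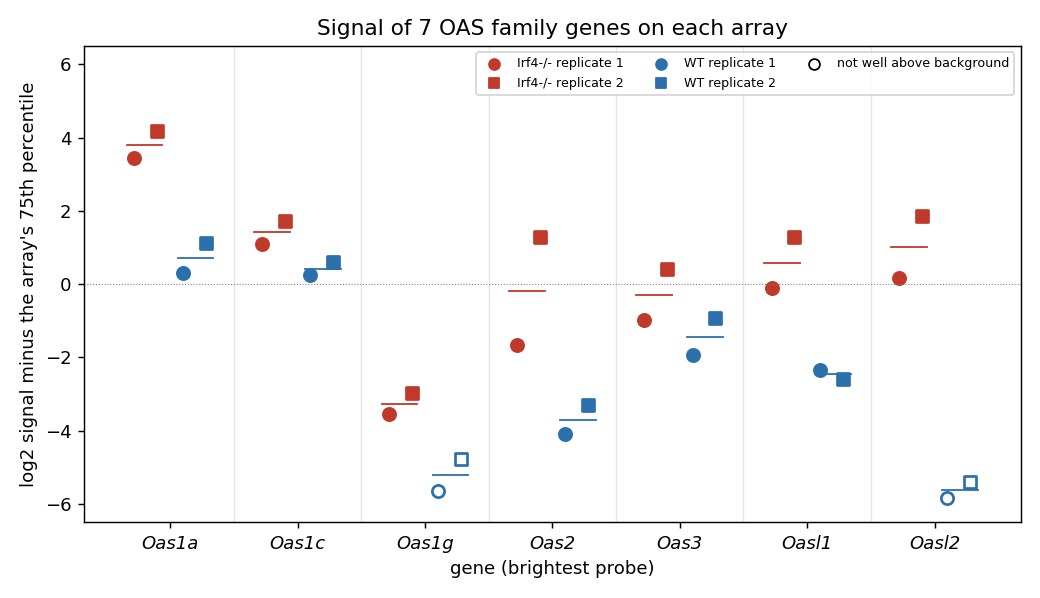
Level of the brightest probe of 7 OAS family genes on each array, as log2 signal minus the array's 75th percentile, with Irf4-/- arrays (red) left of WT arrays (blue), circles for replicate 1, squares for replicate 2, open symbols for spots not well above background and bars for group means. Both Irf4-/- arrays sit above both WT arrays for every gene shown except Oas3, and for 17.9% of all genes tested. Oas1g and Oasl2 passed the filter on dim probes only through the Irf4-/- arrays.

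Oas1a, an active synthetase gene, was at 3.43 and 4.18 on the Irf4-/- arrays, against 0.30 and 1.11 on the WT arrays. In processed intensity these readings were 3201 and 5497 units in Irf4-/- cells and 415 and 664 units in WT cells, far above the lowest signal counted as above background (11.7 to 19.9 units over the 4 arrays). The groups lay well apart, with the lower Irf4-/- array more than 2 log2 units above the higher WT array. The difference was 8.56-fold (log2 3.10 ± 0.39 SE, 95% interval 2.10 to 4.10) and did not pass over all genes (limma adjusted p = 0.0561). It was nearly the same in both slide rows, at 3.13 between the replicates 1 and 3.06 between the replicates 2. Among 18567 genes above background on all arrays it was the 16th highest difference.

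Oas1g, the other active Oas1 synthetase gene, was dim. Its levels were -3.55 and -2.98 on the Irf4-/- arrays, against -5.65 and -4.78 on the WT arrays, where it was not well above background. The Irf4-/- signals of 25.3 and 38.5 units were themselves close to the background limit. Signal was at least 2.26-fold higher in Irf4-/- cells (measured log2 difference 1.95 ± 0.37 SE, limma adjusted p = 0.121). With normexp background correction the measured log2 difference was 0.44, a smaller fold than that bound, so its size depends on the background correction.

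Oas1c, whose product is thought to be inactive, was well measured in both genotypes and showed the smallest difference of the 7. Levels were 1.09 and 1.73 in Irf4-/- cells and 0.24 and 0.59 in WT cells, so the groups did not overlap but lay close together. The difference was 2.00-fold (log2 1.00 ± 0.28 SE, 95% interval 0.26 to 1.73, limma adjusted p = 0.269). A second, dim probe of Oas1c read -3.86 and -2.97 in Irf4-/- cells and -4.93 and -3.58 in WT cells, where it was above background on replicate 2 only. It differed by 0.85. The intervals of Oas1a and Oas1c did not overlap, although both windows hold the 16-base double site, Oas1c on its opposite strand and further from its start. The difference between the 2 genes' responses was not tested.

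The remaining Oas1 genes of the cluster were read alongside, although they are not among the 8. Oas1f stood at 0.80 and 1.31 in Irf4-/- cells and -1.93 and -1.07 in WT cells, a 5.87-fold difference (log2 2.55 ± 0.36 SE, limma adjusted p = 0.0679). Oas1e differed by 0.67 (adjusted p = 0.354). Oas1d, best known from the oocyte, had overlapping groups and differed by 0.13 (adjusted p = 0.968). Neither probe of Oas1h was above background on any array. Differences along 1 gene cluster therefore ran from 0.13 for Oas1d to 3.51 for Oas2, described next. The Oas1 genes are close relatives, and since probe sequences are not given in the files used here, signal from 1 of them on the probe of another was not tested.

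Oas2, which encodes a synthetase with paired units, had the most divergent Irf4-/- arrays. It read -1.67 and 1.29 in Irf4-/- cells, against -4.10 and -3.30 in WT cells. Intensities were 93.7 and 746 units in Irf4-/- cells and 19.7 and 31.2 units in WT cells. Both Irf4-/- arrays were above both WT arrays, but replicate 2 exceeded replicate 1 by 2.96 in Irf4-/- cells. The difference of 11.4-fold (log2 3.51 ± 0.99 SE, 95% interval 0.96 to 6.06) did not pass (limma adjusted p = 0.260). It was 2.03 without Irf4-/- replicate 2 (limma adjusted p = 0.0941) and 4.99 without Irf4-/- replicate 1 (adjusted p = 0.00611). In both fits the lone Irf4-/- array was assumed to vary like the WT pair. A second Oas2 probe was below background on all arrays and carried no information.

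Oas3, the largest synthetase gene, had overlapping groups. Its levels were -0.99 and 0.42 in Irf4-/- cells and -1.93 and -0.94 in WT cells, so that Irf4-/- replicate 1 and WT replicate 2 read almost alike. The difference was 2.22-fold (log2 1.15 ± 0.57 SE, limma adjusted p = 0.585), with a 95% interval of -0.32 to 2.62 that includes no change and the values of Oas1c and Oas1g. Within slide rows it was 0.95 and 1.35, and without Irf4-/- replicate 2 it was 0.45.

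Oasl1, the relative known to restrain Irf7 translation, was at -0.11 and 1.27 in Irf4-/- cells, against -2.33 and -2.59 in WT cells. The WT arrays were close to each other and the Irf4-/- arrays 1.38 apart, with no overlap. The difference was 8.24-fold (log2 3.04 ± 0.48 SE, 95% interval 1.82 to 4.27, limma adjusted p = 0.0811). A second Oasl1 probe, above background on all arrays, read -1.22 and 0.27 in Irf4-/- cells and -3.56 and -3.12 in WT cells, and differed by 2.87. The brighter and the dimmer probe thus gave similar differences, in contrast to Oas2, for which only 1 probe was readable.

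Oasl2, a relative that in the mouse retains synthetase activity, was the only member past the threshold over all genes. It read 0.17 and 1.85 in Irf4-/- cells, against -5.85 and -5.41 in WT cells. Intensities were 335 and 1093 units in Irf4-/- cells and 5.85 and 7.23 units in WT cells, the WT values lying below the background limit of their arrays. The signal was at least 43.8-fold higher in Irf4-/- cells (measured log2 difference 6.64 ± 0.57 SE, limma adjusted p = 0.0318). The difference was 6.02 between the replicates 1 and 7.25 between the replicates 2. The call was lost without WT replicate 1 (adjusted p = 0.103), without WT replicate 2 (adjusted p = 0.117) with replicate number as a block (0.0967), with quantile normalization (0.0872) and with no filter on dim probes (0.406), while the measured difference was 5.80 to 7.47 when 1 array was left out. With normexp background correction the measured difference was 2.70, a smaller fold than the bound from the processed signal, so the size of the difference depends on the background correction.

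**Figure D3:**
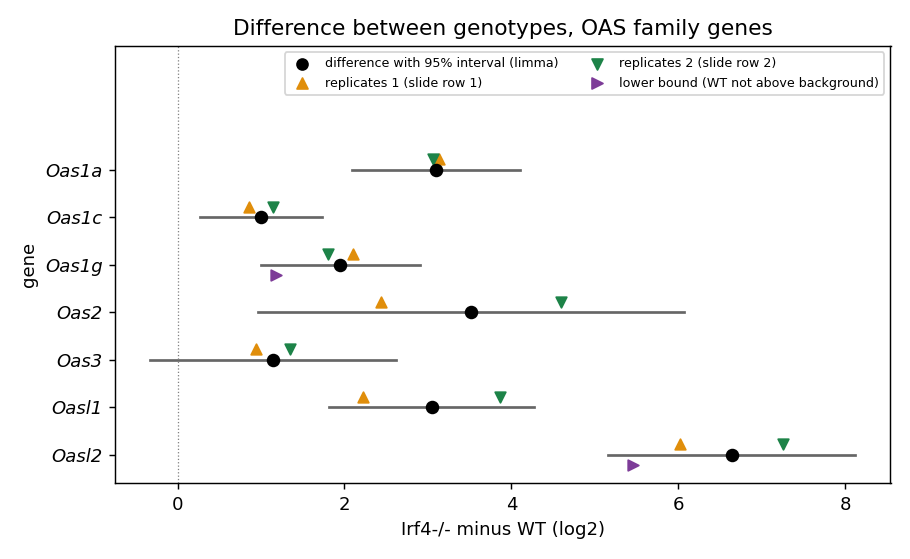
Irf4-/- minus WT difference (log2) of 7 OAS family genes: black points with 95% intervals from limma, triangles for the difference within slide row 1 (replicates 1) and slide row 2 (replicates 2), and purple arrows for the lower bound where WT signal was not above background. All points and all within-row differences are above 0, and only the interval of Oas3 crosses 0.

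In the order of differences among genes measured on all arrays, Oas2 (3.51), Oas1a (3.10) and Oasl1 (3.04) came close together, and the Oas2 interval, the widest, contained the other two. They were the 9th, 16th and 20th highest of 18567. Oas3 (1.15) and Oas1c (1.00), 369th and 476th, formed a lower pair that also could not be ordered. The interval of Oas1c ended at 1.73, below the start of the Oasl1 interval at 1.82 and of the Oas1a interval at 2.10, while that of Oas2 began at 0.96 and overlapped all of them. The authors' deposited table, whose values were centred for each probe, gave 3.08 for Oas1a, 3.50 for Oas2, 3.03 for Oasl1 and 6.62 for Oasl2. By limma on those deposited values Oas1a also passed (adjusted p = 0.0353).

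The OAS genes also separated the arrays within a genotype. Replicate 2 exceeded replicate 1 for all 7 genes in Irf4-/- cells, by a median of 1.38, and for 6 of 7 in WT cells, by a median of 0.81, the exception being Oasl1 (-0.25). Over all genes tested these medians were -0.07 in Irf4-/- cells and -0.03 in WT cells. All replicates 1 lay in slide row 1 and all replicates 2 in row 2, so row and replicate number cannot be told apart. Row 2 had the higher background limit (19.9 units in Irf4-/- and 18.3 in WT, against 11.7 in Irf4-/- and 12.0 in WT in row 1), and Oas1h, below background everywhere, showed a gap of 0.68 in both genotypes. The gaps of the dim Oas1g, 0.57 in Irf4-/- and 0.87 in WT cells, were of that size. Those of Oas2 (2.96), Oasl2 (1.67), Oas3 (1.40) and Oasl1 (1.38) in Irf4-/- cells were larger. Oas1a, bright on every array, had similar gaps in Irf4-/- (0.75) and WT cells (0.82). With 1 array per genotype and row, a difference in these gaps between genotypes has no test.

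**Figure D4:**
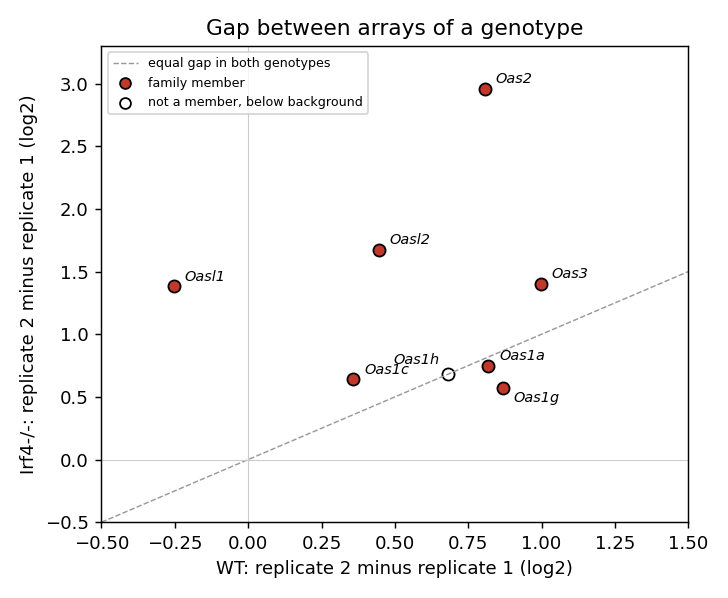
Replicate 2 minus replicate 1 (log2) in Irf4-/- cells (vertical axis) against the same gap in WT cells (horizontal axis) for 7 OAS family genes and for Oas1h, which was below background on all arrays. Oas2, Oasl1, Oasl2, Oas3 and Oas1c lie above the dashed line of equal gaps, Oas1a and Oas1g below it, and Oas1h on it.

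Of 6 genes tested that act on the product of the synthetases, 3 were higher and 3 lower, with a median of -0.04 and none past the threshold by limma, nor any at an unadjusted p under 0.05. Akap7 (0.58, adjusted p = 0.553) and Pde12 (-0.53, adjusted p = 0.552), whose products can degrade the oligoadenylates, differed in opposite directions. Abce1, whose product also acts in ribosome recycling, differed by -0.13 (adjusted p = 0.937).

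Of 10 sensors of foreign RNA and DNA tested, 9 were higher, against 9585 of all 20512 genes tested. None passed, and the median was 0.37. At an unadjusted limma p under 0.05, 2 were higher, against 6.36% of all genes. Ddx58, encoding the RNA sensor RIG-I, was at 3.66 and 4.07 in Irf4-/- cells and 2.26 and 2.38 in WT cells (difference 1.55 ± 0.21 SE, limma adjusted p = 0.0657). Ifih1, encoding the related sensor MDA5, was at 0.68 and 1.27 in Irf4-/- cells and 0.13 and -0.39 in WT cells (limma adjusted p = 0.242), and Dhx58 differed by 1.25 (adjusted p = 0.489). The cytosolic DNA sensor gene Cgas, whose product has the same enzyme fold as the synthetases, differed by 0.41 (adjusted p = 0.628). Tlr3 was below background on all arrays.

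Among 13 genes of the interferon receptor, its signalling factors and their regulators, 9 were higher, against 9585 of all 20512 genes tested. None passed, and the median was 0.21. At an unadjusted limma p under 0.05, 4 were higher, against 6.36% of all genes. Irf7 differed by 2.12 (adjusted p = 0.289) and Usp18, encoding a feedback protease, by 1.64 (adjusted p = 0.244). Stat2 and Irf9, which encode subunits of the transcription factor ISGF3, differed by 0.21 and -0.05 (adjusted p = 0.966 and 0.986). The receptor genes Ifnar1 and Ifnar2 differed by -0.12 and 0.58 (adjusted p = 0.974 and 0.315).

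Interferon genes themselves were mostly dim. Of 10 on the array 5 were tested, with a median difference of 0.46, or 0.28 over the 4 above background on all arrays. None of the 5 passed or had an unadjusted limma p under 0.05. Ifnb1 was above background on 1 array, Irf4-/- replicate 2 (-4.99 and -3.74 in Irf4-/-, -5.37 and -4.39 in WT). Ifna1 was at 0.58 and -3.80 in Irf4-/- cells, against -3.33 and -3.37 in WT cells. Any link between the Ifna1 readings and the OAS levels was not tested. Ifng, encoding the type II interferon, was at 2.42 and 2.19 in Irf4-/- cells and 1.92 and 1.74 in WT cells (difference 0.48 ± 0.19 SE, limma adjusted p = 0.449).

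Of 18 other interferon-stimulated genes tested, 17 were higher, against 9585 of all 20512 genes tested. Both slide rows taken alone gave a higher value for 6008 of all genes, and for 13 of these 18. Their median difference was 1.06, or 0.65 with Ifi44 and Ddx60, not above background on either WT array, at their lower bounds, and 0.55 over the 16 above background on all arrays. None passed by limma. At an unadjusted limma p under 0.05, 6 were higher and 1 lower, against 1304 higher and 1028 lower of all 20512 genes. Rtp4 differed by 4.81 and Ifit3 by 2.75 (adjusted p = 0.0839 and 0.260). Ifi44 had overlapping groups (-4.19 and -0.73 in Irf4-/- cells, -6.82 and -4.05 in WT cells). By group means, its signal was at least 3.94-fold and that of Ddx60 at least 1.68-fold higher in Irf4-/- cells (limma adjusted p = 0.560 and 0.117). In contrast Ifi27l2a, very bright in both genotypes, differed by 0.05, and Phf11d by -0.71. Replicate 2 exceeded replicate 1 by a median of 1.104 in Irf4-/- and 0.43 in WT cells. Apol9a, whose promoter window holds the 16-base double site of Oas1a, was at -1.35 and -1.67 in Irf4-/- cells and -1.39 and -1.61 in WT cells, with no difference larger than the spread between arrays (limma adjusted p = 0.999). Apol9a was looked up after the site was found.

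**Figure D5:**
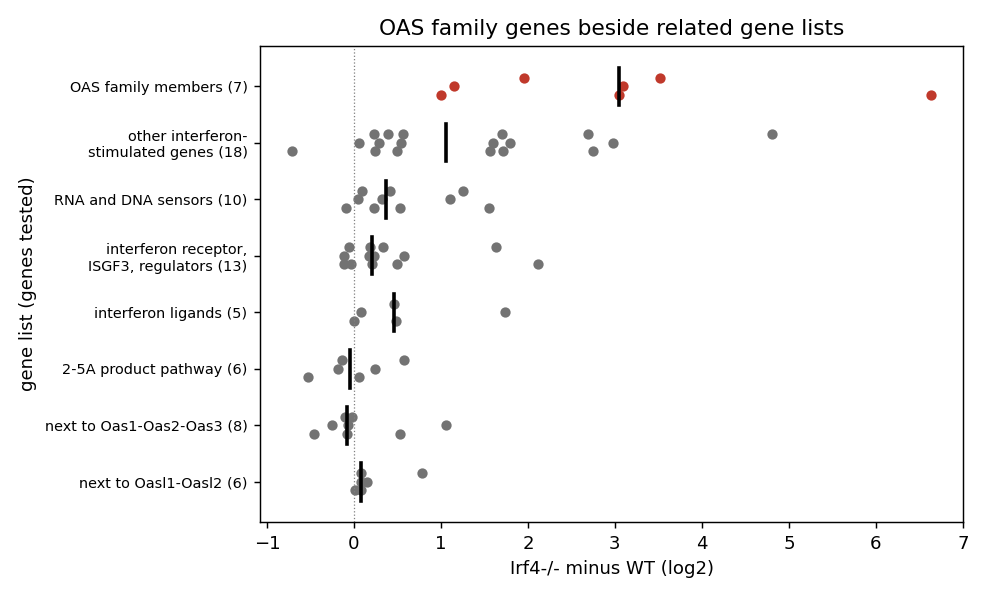
Irf4-/- minus WT difference (log2) of the tested genes of 8 lists, each point a gene and each black bar the list's median, with the OAS family members in red and the number tested in brackets. The OAS median is 3.04, against 1.06 for other interferon-stimulated genes (0.65 with Ifi44 and Ddx60 at their lower bounds) and between -0.08 and 0.46 for the remaining lists. The 0.46 is that of the interferon ligands, and it is 0.28 over the 4 above background on all arrays. Oasl2, Oas1g, Ifi44 and Ddx60 are drawn at their measured differences.

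None of the genes next to the OAS loci passed the test. The 4 nearest protein-coding genes on each side of the Oas1-Oas2-Oas3 cluster had a median difference of -0.08. Of these 8, 2 were higher, against 9585 of all 20512 genes tested. None passed by limma, and 2 were higher at an unadjusted p under 0.05, against 6.36% of all genes. Dtx1, a Notch pathway gene in that group, differed by 1.06 (adjusted p = 0.414), Cfap73 by 0.52, Hectd4 by -0.46 and Ptpn11 by -0.25. Around the Oasl1-Oasl2 pair 6 of 8 neighbours were tested. All 6 were higher, against 9585 of all 20512 genes tested. Their median was 0.08, the highest being 2610524H06Rik at 0.78 (adjusted p = 0.176). None passed by limma, and 1 was higher at an unadjusted p under 0.05, against 6.36% of all genes. The neighbours not tested were below background on all arrays.

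By the distance between centred profiles over the 4 arrays, the genes most like the mean of the 7 members were Ddx60 (distance 0.31), Zfp185 (0.32), Napb (0.38), Gm32819 (0.39), Il9r (0.49) and Gm5796 (0.50), against a median of 3.17 over named genes that are no members. Centred levels of the family mean were 0.79 and 2.13 in Irf4-/- cells and -1.74 and -1.17 in WT cells. Ddx60, an interferon-stimulated helicase gene, had 0.62 and 2.06 in Irf4-/- cells and -1.49 and -1.19 in WT cells. Within the family Oas1a (0.49) and Oasl1 (0.60) lay nearest to the mean and Oasl2 (3.73) farthest. Of these 6 genes, Ddx60, Zfp185, Gm32819 and Gm5796 were above background on neither WT array, and Il9r was above it on 1. The family mean itself includes Oasl2 and Oas1g, also above background on neither WT array. Likeness to genes dim in WT cells was thus partly built in. With 4 arrays such likeness rests mainly on the genotype difference and the replicate gap, and many genes share both.

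Markers of other cells that the culture could hold were read beside these results. Summed levels below are linear, in multiples of the array's 75th percentile. B cell markers were above background on 7 or 8 of 8 genes on every array, Ms4a1 and Pax5 among them. The B cell markers summed to 6.94 and 3.02 in Irf4-/- cells and 3.07 and 1.69 in WT cells. In each genotype the sum was higher on replicate 1. Of the 8 B cell markers tested, 7 were higher in Irf4-/- cells, against 9585 of all 20512 genes tested. Their median difference was 0.86, or 1.045 over the 7 above background on all arrays. None passed by limma, and 2 were higher at an unadjusted p under 0.05, against 6.36% of all genes. Cd72 differed by 1.87 (limma adjusted p = 0.0982) and Cd79a, the only lower marker, by -0.84. Plasmacytoid dendritic cell markers were all detected, with sums of 91.8 and 123 in Irf4-/- cells and 81.2 and 102 in WT cells. Most of that sum came from Siglech (difference 0.03) and Bst2 (0.56), the second of which is also on the list of interferon-stimulated genes. Ly6d differed by 1.51 and Ccr9 by 0.96 (limma adjusted p = 0.564 and 0.516), both positive in each slide row. The list's median was 0.56, none of its 5 genes passed by limma and none had an unadjusted p under 0.05. Of 8 myeloid and dendritic cell markers, 3 or 4 were above background on an array, and Adgre1, Itgax and Lyz2 were above it on none. Their sums were 11.2 and 10.2 in Irf4-/- cells and 11.6 and 12.4 in WT cells. Natural killer cell markers summed to 8.65 and 5.29 in Irf4-/- cells and 5.04 and 4.20 in WT cells. Ncr1 was below background on all arrays. Only 2 of the 4 markers were tested, and they differed in opposite directions. Eomes differed by 1.44 and Klrk1 by -0.75 (limma adjusted p = 0.280 and 0.302). Of the CD8 T cell markers, Cd8b1 differed by -0.98 (adjusted p = 0.0980) and Cd8a was dim. The part of such cells in the OAS differences was not tested.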

How the data were processed

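RNA was measured on 4 one-colour (Cy3) Agilent arrays on 1 slide. Per the file headers, the authors read each spot's intensity using Feature Extraction version 11.0.1.1 (9.1 in the submitters' processing notes), which subtracts background with a spatial trend and scales nothing between arrays. The intensity used is the processed signal. The authors' deposited log2 table matched these values after centring on each probe's mean over the 4 arrays, with column shifts of at most 0.03. Its scale, log2 less an array constant, and its sign could be set from the scanner files. Its column medians were -0.11 and 0.12 for Irf4-/- arrays and -0.16 and 0.10 for WT arrays.

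Control and flagged spots were dropped, log2 signals were scaled to each array's 75th percentile and the brightest of a gene's probes stood for it. A gene needed signal well above background on both arrays of 1 genotype. The 20512 genes were compared with limma 3.58.1 in R 4.3.3 (lmFit, eBayes without trend, 2 residual and 2.95 prior degrees of freedom) with Benjamini-Hochberg adjustment at 0.05, tested on simulated data. Each error is a moderated SE. Depth does not apply to arrays, whose number limits the precision. A lower bound sets the brighter group's mean against, per array, the higher of the probe's own signal and the lowest signal well above background. An exact permutation test of 2 arrays against 2 cannot go below p = 0.333 (two-sided), so none was used. Accessions of 32994 probes matched a RefSeq gene table (GRCm38.p6), which served for names and gene order, since the array design is on mm9. Genes were named by a rule: all members, the remaining Oas1 genes, Irf4, up to 4 per list with the largest differences, the loci's neighbours and the 6 nearest profiles. Some genes and a motif that the rule covers are not reported here. Other genes named from the lists, and Apol9a, were picked after their values were seen. The members, lists and tests were chosen with earlier results of these data known. Alternatives tried were 2 other scalings, normexp (offset 50) on the spot medians, since no spot mean is in the files, the deposited table, 2 other filters, probe means, trend with robust settings, a replicate block and leaving out each array.

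Same-numbered arrays deviated together from their group means (r = 0.348 across genes, which are not independent), but no label ties a number to a shared experiment.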

Additional observations from a re-analysis of the deposited data

How the results depend on the processing

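The direction of every tested OAS member was positive under all 13 alternatives, where it could be tested; Oasl2 and Oas1g drop out when signal on all 4 arrays is required. The calls depended on the setting. Against 151 genes and 1 OAS member (Oasl2) as reported, array median scaling called 1043 genes and 5 members (this scaling moved the median of all genes to -0.13), normexp 757 and 4, trend with robust settings 797 and 4, and the authors' deposited values 260 and 2 (Oas1a and Oasl2). Quantile normalization called 1 gene and 0 members, no filter 0 and 0, and the replicate block 0 and 0 (lowest member adjusted p = 0.0967). Requiring signal on all 4 arrays called 166 genes and 1 member, Oas1a in place of Oasl2. Leaving out 1 array gave 0 to 487 genes and 0 to 4 members. The lone array left in a genotype was then assumed to vary like the other pair. It was 0 and 0 without either WT array, 487 and 4 without Irf4-/- replicate 1 and 208 and 3 without Irf4-/- replicate 2. Oas1a was called in 7 of 13 alternatives, Oasl2 in 7 of 12, Oasl1 in 5 of 13, Oas2 in 3 of 13, Oas1c in 1 of 13, Oas1g in 1 of 12 and Oas3 in 0 of 13. The median member difference of 3.04 was 1.94 with normexp, whose offset compresses dim signals, and 1.95 with probe means, which bring in the Oas2 probe below background. It ran from 2.03 (without Irf4-/- replicate 2) to 3.47 when 1 array was left out. With normexp Oasl2 differed by 2.70 and Oas1g by 0.44. Signal near background limits Oas1g and the WT level of Oasl2, and 2 arrays per genotype limit all of these tests.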
